A study of Drosophila melanogaster with 3 samples.

Results

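The 8 T-box transcription factor genes of Drosophila melanogaster, mid, H15, bi, Doc1, Doc2, Doc3, byn and org-1, were examined for binding of the zinc finger protein Squeeze (sqz) in embryos. The genes were taken as the whole family, out of 13945 protein-coding genes of the annotation. Their peaks were chosen by position, as those with a summit (the highest point of a peak) in the gene body or within 5 kb of it, and were ordered by the signal value of each peak. That rule gave 21 of the 6578 peaks of the authors' thresholded list. Peak number and peak strength at these genes are therefore descriptions and carry no test. The genes and the comparison lists below were picked with earlier results of these data known.

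The chromatin came from whole embryos of both sexes, 0 to 16 h old, of a fly line named sqz-GFP that stably carries sqz with GFP at its C-terminal end. All 3 libraries were biological replicates of this 1 group, with chromatin broken by sonication into pieces of 200 to 800 bp. A second genotype, age or treatment was not part of the data, and no source used here names the promoter that drives the fusion. One label describes the libraries as input control, but the antibody label names sqz and the file headers list a separate control alignment, so they were handled as ChIP libraries. The strongest of all thresholded peaks lay in the 5 kb window of sqz itself, with a signal value of 4852. It ranked 4, 1 and 1 in replicates 1, 2 and 3. The same peak also falls in the windows of nanos, CG11779 and CG42359, so it does not belong to sqz alone. There were 30000 peaks in every library list and as many in the pooled list. The authors name the pooled list as peaks and background, so its entries outside the thresholded set need not be bound sites. Read depth is unknown because the lists carry no read counts. In whole embryos, weak binding in many cells and strong binding in few cells cannot be told apart.

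T-box proteins bind DNA through a conserved domain, the T-box, and act as activators or repressors in early patterning and organ formation. In the fly, mid and H15 are paralogs that act in segment patterning, the heart and the nervous system, and bi (optomotor-blind) acts downstream of BMP signalling in the patterning of appendages and the optic lobe. The 3 Dorsocross genes are needed in the amnioserosa and the heart-forming mesoderm, byn is the fly Brachyury gene and directs hindgut formation, and org-1, a relative of vertebrate Tbx1, acts in muscle identity. Sqz is a Krüppel-type zinc finger factor best known for specifying neurons of the nerve cord.

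The sequences of the 8 strongest T-box summits, which all 3 libraries met, show what these peaks lie on. Each run below is 201 bases of the Release 6 assembly (the build that dm6 names), plus strand, centred on the summit, and all were free of annotated UTRs. Capitals mark matches, on either strand, to any of 6 short words that are defined with the word counts further on. The summit beside org-1 (chrX:8455327-8455527) was the strongest of the family and held none of the 6 words, as did the summit between Doc3 and Doc2 (chr3L:9011842-9012042). The summit upstream of mid (chr2L:5461140-5461340), the upstream and downstream summits of H15 (chr2L:5403653-5403853 and chr2L:5418084-5418284), the summits upstream of bi (chrX:4411476-4411676) and at its internal promoter (chrX:4426916-4427116) and the summit upstream of Doc1 (chr3L:9038292-9038492) held matches to GAGAG, to AAAAAA or to both.
org-1 upstream: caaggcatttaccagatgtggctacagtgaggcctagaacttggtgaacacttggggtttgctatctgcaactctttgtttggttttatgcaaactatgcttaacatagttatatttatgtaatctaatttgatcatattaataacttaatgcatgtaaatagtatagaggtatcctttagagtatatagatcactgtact
mid upstream: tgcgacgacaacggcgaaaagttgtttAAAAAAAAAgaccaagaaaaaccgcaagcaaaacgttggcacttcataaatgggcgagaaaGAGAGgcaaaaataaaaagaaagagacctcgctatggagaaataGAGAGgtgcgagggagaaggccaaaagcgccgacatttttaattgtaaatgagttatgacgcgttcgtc
H15 upstream: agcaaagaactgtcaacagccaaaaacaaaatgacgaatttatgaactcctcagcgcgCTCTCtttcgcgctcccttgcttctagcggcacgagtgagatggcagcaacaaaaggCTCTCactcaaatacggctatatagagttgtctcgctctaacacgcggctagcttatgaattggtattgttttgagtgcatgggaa
H15 downstream: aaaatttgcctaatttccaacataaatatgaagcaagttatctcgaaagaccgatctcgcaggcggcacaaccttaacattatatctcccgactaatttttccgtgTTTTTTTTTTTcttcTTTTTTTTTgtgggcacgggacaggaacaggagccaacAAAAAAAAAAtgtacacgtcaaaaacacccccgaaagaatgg
bi upstream: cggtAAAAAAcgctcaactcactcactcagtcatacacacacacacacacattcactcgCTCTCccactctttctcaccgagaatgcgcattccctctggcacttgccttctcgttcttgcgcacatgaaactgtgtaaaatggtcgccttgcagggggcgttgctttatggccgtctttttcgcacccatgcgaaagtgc
bi internal promoter: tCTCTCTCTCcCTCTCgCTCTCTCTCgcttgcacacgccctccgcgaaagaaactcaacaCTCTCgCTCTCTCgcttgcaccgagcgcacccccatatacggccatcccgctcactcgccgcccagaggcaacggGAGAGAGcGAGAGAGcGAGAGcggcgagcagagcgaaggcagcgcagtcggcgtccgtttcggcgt
Doc1 upstream: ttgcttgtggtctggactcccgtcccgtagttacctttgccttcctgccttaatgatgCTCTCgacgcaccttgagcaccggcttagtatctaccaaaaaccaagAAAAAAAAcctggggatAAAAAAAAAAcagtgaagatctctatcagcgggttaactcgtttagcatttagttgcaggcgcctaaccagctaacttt
Doc3 to Doc2: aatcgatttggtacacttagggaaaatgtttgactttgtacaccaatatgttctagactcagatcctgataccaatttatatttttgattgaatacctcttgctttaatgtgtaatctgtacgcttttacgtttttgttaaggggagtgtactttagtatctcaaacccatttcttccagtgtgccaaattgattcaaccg

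Thresholded summits were found at 7 of the 8 T-box genes, and byn had none. Over all protein-coding genes 41.9% had such a summit in the same window, and among the 7114 genes whose windows were as long as those of the family the share was 50.4%. The count was 10 at bi, 3 at H15, 3 at Doc1, 2 at Doc2, 2 at org-1, 1 at mid and 1 at Doc3, with the summit of Doc3 also counted for Doc2. The windows together covered 194403 bp, so the density was 1.08 thresholded summits per 10 kb, against 0.547 over the windows of all protein-coding genes. A summit within 1 kb of a transcription start site (TSS) was present at 4 of the 8 genes (mid, H15, bi and org-1), while 20.5% of all protein-coding genes had one. Because the family was described for these very peaks, nothing is read from the gap between these shares.

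**Figure D1:**
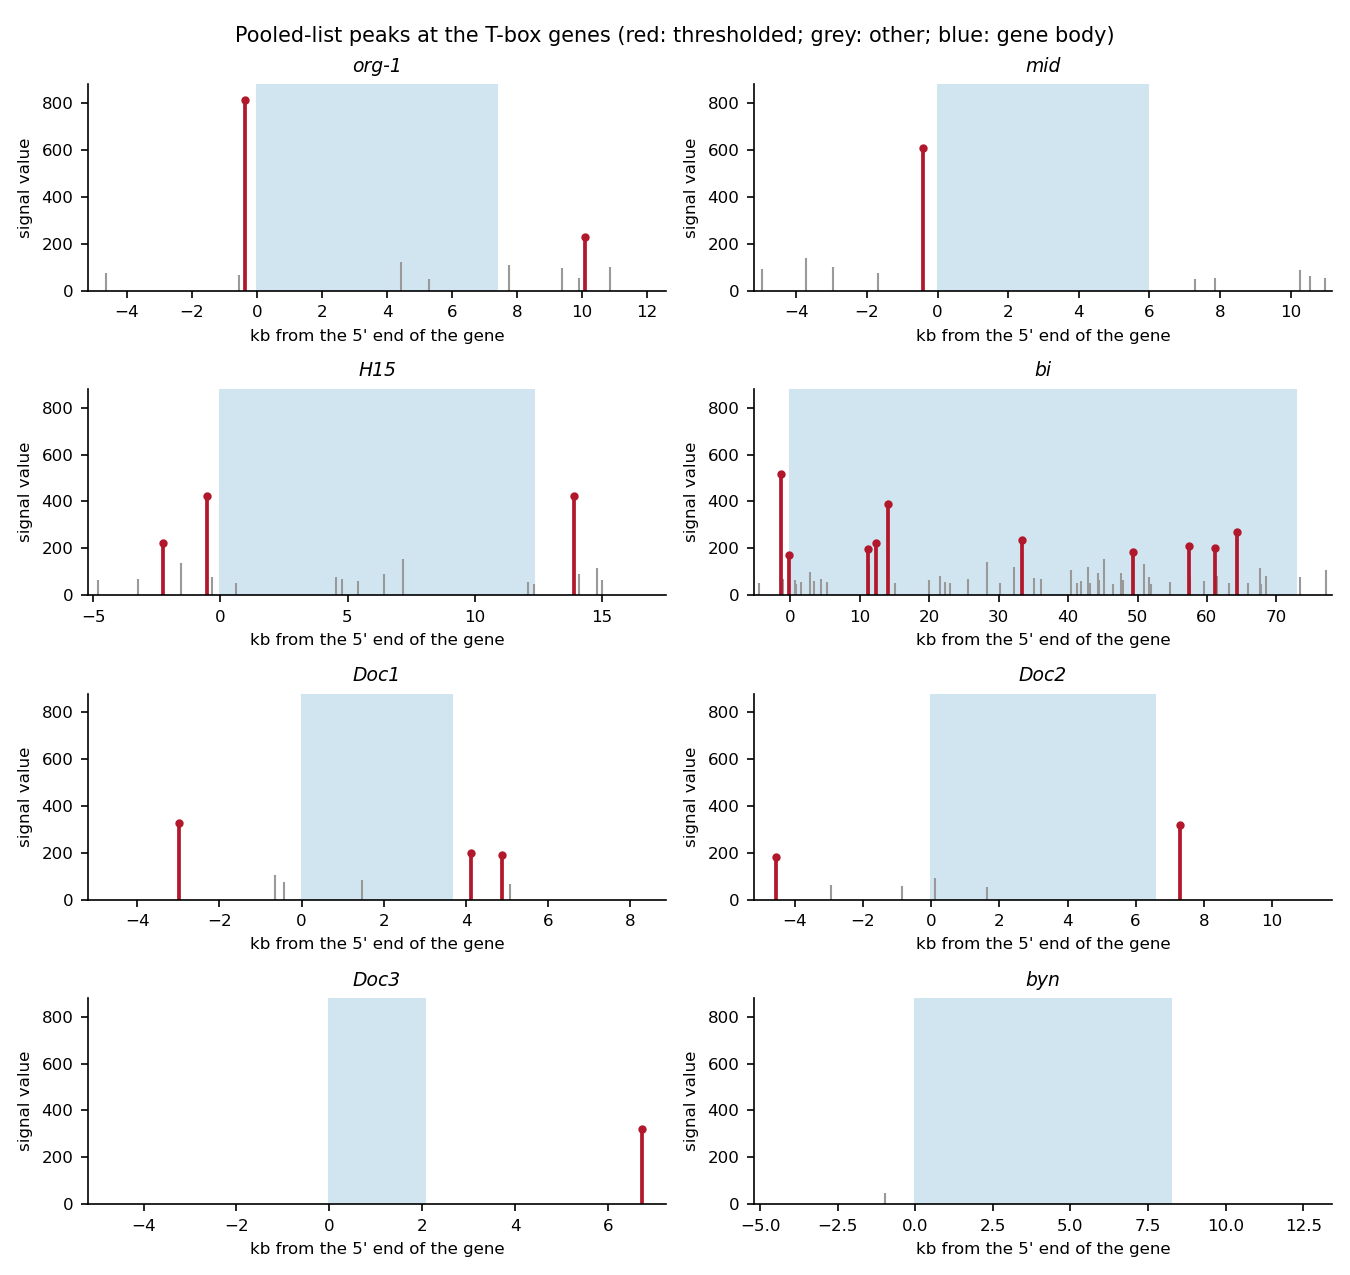
Peaks of the pooled list at each T-box gene, with the distance from the 5' end of the gene in kb on the x axis and the authors' signal value on the y axis (red, thresholded peaks; grey, other pooled peaks; blue, gene body). The tallest peaks of org-1 (812) and mid (610) stand just upstream of the gene, bi carries 8 thresholded summits inside its body, and byn has only 1 weak pooled peak.

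The strongest T-box peak lay at org-1 (FBgn0021767, chromosome X, 8447691 to 8455069, minus strand). Its summit at position 8455427 was 358 bp upstream of the TSS, in an interval of 307 bp, with a signal value of 811.9. It ranked 302 in the pooled list and 275, 421 and 297 in replicates 1, 2 and 3. The libraries thus placed this peak at a like height, and their summits lay within 24 bp of one another. Only 5.1% of protein-coding genes had a peak of this rank or stronger in their window. The second summit of org-1, 2718 bp past its 3' end at position 8444973, was weaker and less even: its signal value was 227.3, and it ranked 14545, 2177 and 5970 in replicates 1, 2 and 3. That summit lay nearer to another gene, 2625 bp upstream of the TSS of CG12123. The non-member TSS nearest to any org-1 summit was that of CG32713, 2205 bp from the strong peak.

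The paralogs mid and H15 lie 45045 bp apart on chromosome 2L with no other protein-coding gene between them. At mid (FBgn0261963, 5461639 to 5467610, plus strand) the single thresholded summit stood 399 bp upstream of the TSS, at position 5461240, with a signal value of 609.9. Its rank was 622 in the pooled list and 829, 474 and 812 in replicates 1, 2 and 3, so every library held it among its strongest peaks. The library summits spanned 13 bp. H15 (FBgn0016660, 5404280 to 5416593, plus strand) carried its thresholded summits on both sides of the gene and none inside. Weaker pooled peaks did lie in its body, the highest at 5411478 with a pooled rank of 7200. The upstream summit at 5403753, 527 bp before the TSS, had a signal value of 420.8 and ranked 964, 1326 and 3520 in replicates 1, 2 and 3. The downstream summit at 5418184, 1591 bp past the 3' end, had a nearly equal signal value of 421.1 but ranked 3023, 1585 and 831. The libraries therefore did not share an order for these 2 peaks: the upstream one was the stronger in replicates 1 and 2 and the weaker in replicate 3. One more summit of H15, 2261 bp upstream, had a signal value of 224.2 and ranked 5123, 3603 and 5340. No other protein-coding TSS came near: the closest to a mid summit was that of CG14020, 56497 bp away, and the closest to an H15 summit that of nompC, 55819 bp away.

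The stretch between H15 and mid held 6 thresholded summits, of which 4 lay beyond 5 kb of either gene. Those 4 stood 8942, 14375, 29891 and 31616 bp past H15, with signal values of 215.8, 170.7, 259.2 and 188.8, and 2, 1, 2 and 2 libraries met them. They were weaker than the summits of the stretch within 5 kb of H15 (421.1) or mid (609.9), which all 3 libraries met. The highest of the 4, at 259.2, was stronger than the H15 summit 2261 bp upstream of its TSS (224.2). The list of each library held 30 peaks in this stretch and the pooled list 35. Taken from 5 kb before H15 to 5 kb past mid, the region had 8 thresholded summits, or 1.09 per 10 kb.

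**Figure D2:**
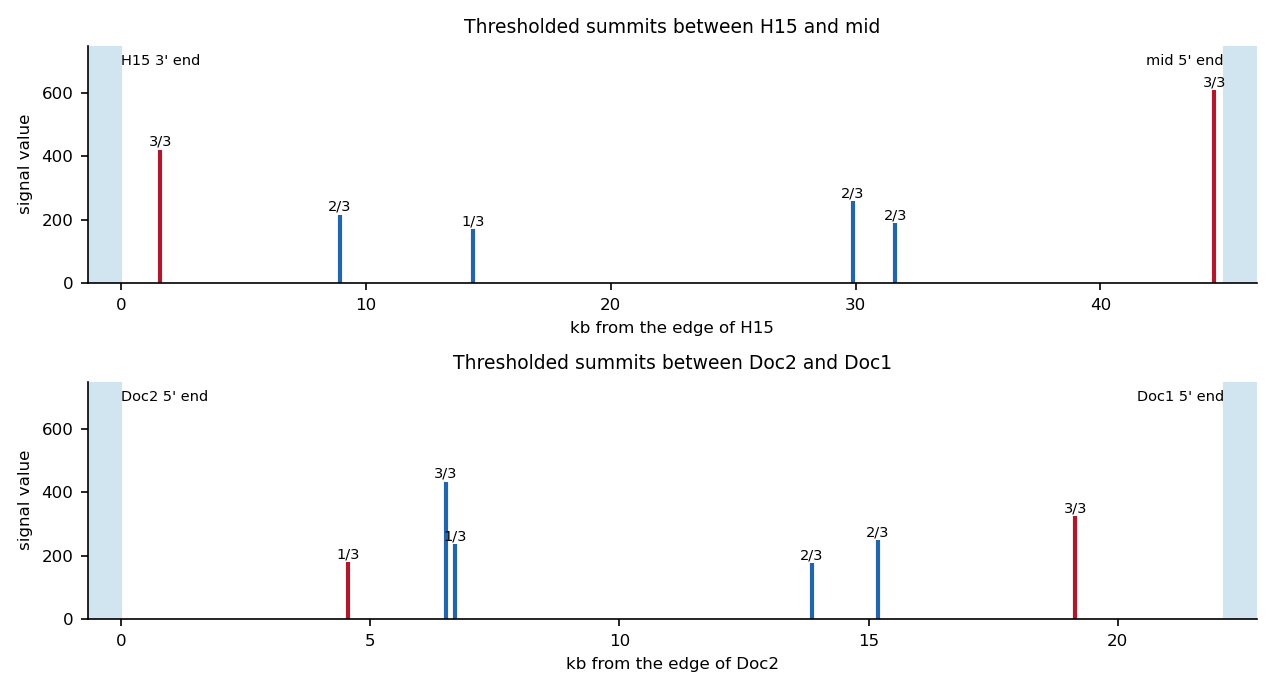
Thresholded summits in the stretches between H15 and mid (top) and between Doc2 and Doc1 (bottom), with the distance from the edge of the left gene in kb and the signal value; each label gives the number of the 3 libraries that met the summit (red, within 5 kb of a T-box gene; blue, farther; shading, gene bodies). Each stretch holds 6 summits, and the tallest of the lower one, at 434.0, lies beyond 5 kb of both genes.

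At bi (FBgn0000179, chromosome X, 4412856 to 4485647, plus strand), the longest gene of the family with 72792 bp, the 10 thresholded summits were spread over the gene. Just 0.696% of protein-coding genes had as many, although bi has a long window and its density of 1.21 per 10 kb was close to that of Doc2 (1.21) and org-1 (1.15). The strongest summit lay 1280 bp upstream of the first TSS at position 4411576, with a signal value of 518.3 and ranks of 974, 875 and 1148 in replicates 1, 2 and 3. The next, at 4427016, was 119 bp upstream of the internal TSS at 4427135, with a signal value of 389.1 and ranks of 966, 2496 and 2194; the library summits there lay within 2 bp of each other. A summit upstream of each of these start sites was thus met in every library. A weak summit stood 178 bp before the first TSS, with a signal value of 172.7; it ranked 4747 and 5777 in replicates 2 and 3 but 24591 in replicate 1. The other 7 summits were intronic, from 3070 bp upstream to 49986 bp downstream of the nearest bi TSS, with signal values from 183.5 to 269.8. All 3 libraries met 2 of these, at 4470234 and 4477121, and for 2 of them 1 library lacked a summit at most 100 bp away. In both cases that library listed a strong summit a little farther off: 153 bp from 4424065 at rank 2915 in replicate 1, and 127 bp from 4425192 at rank 4527 in replicate 3. Every bi summit also lay in the transcribed span of lncRNA:CR32773, which runs through the locus, and the nearest other protein-coding TSS, of CG3626, was 45159 bp off. The full pooled list held 56 peaks in this window, of which 10 were thresholded, 10 stood in the next 6578 ranks and 36 were lower still.

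The Dorsocross genes form a cluster on chromosome 3L, in the order Doc3 (FBgn0035954, 9005196 to 9007249, plus strand), Doc2 (FBgn0035956, 9012686 to 9019246, minus strand) and Doc1 (FBgn0028789, 9041375 to 9045042, plus strand). No thresholded summit lay in a Doc gene body or within 1 kb of a Doc TSS. Doc1 had its strongest summit 2983 bp upstream at position 9038392, inside lncRNA:CR46451, with a signal value of 325.6 and ranks of 4717, 1823 and 2713 in replicates 1, 2 and 3. In replicate 1 the summit 446 bp past the 3' end was stronger, at rank 3945, while it ranked 5384 and 9355 in replicates 2 and 3. The summits on that side, 446 and 1215 bp past the gene, had signal values of 199.9 and 188.5 and were nearer to the TSS of Argk2, an arginine kinase gene, at 1951 and 1182 bp. Doc2 and Doc3 shared the summit at 9011942, which lay 744 bp past the 3' end of Doc2 and 4693 bp past that of Doc3. It had a signal value of 319.2 and ranked 1481, 4467 and 2061, and its nearest TSS was that of CG5194, 2104 bp away. The last summit of Doc2, 4559 bp upstream, was near the bottom of the thresholded list with a signal value of 179.9, and ranked 4329, 8924 and 7434.

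The strongest peak of the Doc cluster fell just outside the 5 kb limit. Doc2 and Doc1 are transcribed away from each other, and the 22128 bp between their 5' ends held 6 thresholded summits and no other protein-coding gene. The highest, at 9025757, was 6511 bp upstream of Doc2, with a signal value of 434.0 and a pooled rank of 1297, and was met in all 3 libraries. It was stronger than the summit just inside the limit at Doc2 (179.9). Elsewhere the nearest summits beyond the limit were weaker than the strongest inside: 248.4 for Doc1, 6943 bp away, 233.4 for org-1, 6270 bp away, 245.4 for mid, 9327 bp away, and 166.0 for bi, 12886 bp away. From 5 kb before Doc3 to 5 kb past Doc1 there were 9 thresholded summits in 49847 bp, or 1.81 per 10 kb.

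The hindgut gene byn (FBgn0011723, chromosome 3L, 11927693 to 11935919, plus strand) stood apart within the family by the lack of thresholded peaks. Such a lack is common, since only 41.9% of all protein-coding genes had a thresholded summit in the same window. The byn window held 1 pooled peak, 984 bp upstream of the TSS, with a signal value of 47.9 at rank 29500 of 30000. The libraries listed 4, 1 and 1 peaks there, whose best ranks were 24247, 22815 and 22279. The best peak lay 62 bp downstream of the TSS in replicate 1, 184 bp upstream in replicate 2 and 995 bp upstream in replicate 3. A weaker peak of replicate 1, 263 bp upstream at rank 28217, was close to that of replicate 2, and the peak of replicate 3 was close to the pooled one. The nearest thresholded summit was 104888 bp from the gene, close to RpL10Ab, and 2.32% of protein-coding genes were as far or farther from one. Peaks were thus listed at byn, but near the bottom of each list and far below the strongest 6578.

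The libraries were compared by asking whether a summit lay within 100 bp of a T-box summit among the strongest 6578 peaks of each. In replicates 1, 2 and 3, 15, 19 and 15 of the 21 summits were met in this way. Over the whole thresholded list 68.2%, 80.6% and 79.2% were met in the same replicates. All 3 libraries met 11 summits (52.4%, 95% Wilson interval 32.4 to 71.7, counting error only), 6 were met in 2, 4 in 1 and none in 0. Over the whole thresholded list 48.6% were met in all 3 and 81.4% in 2 or more, here 17 of 21. The 9 strongest T-box summits were each met in all 3 libraries, as the plot of ranks shows, and the remaining 12 counted 2 such summits. Strength here is the pooled signal of the same 3 libraries, so this pattern is partly built in. Requiring support in both of the other libraries left 14 summits without replicate 1, 11 without replicate 2 and 14 without replicate 3, at 7 genes each time. In each case 4 genes had such a summit within 1 kb of their TSS. No share over all genes stands beside these counts, so nothing is read from them.

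**Figure D3:**
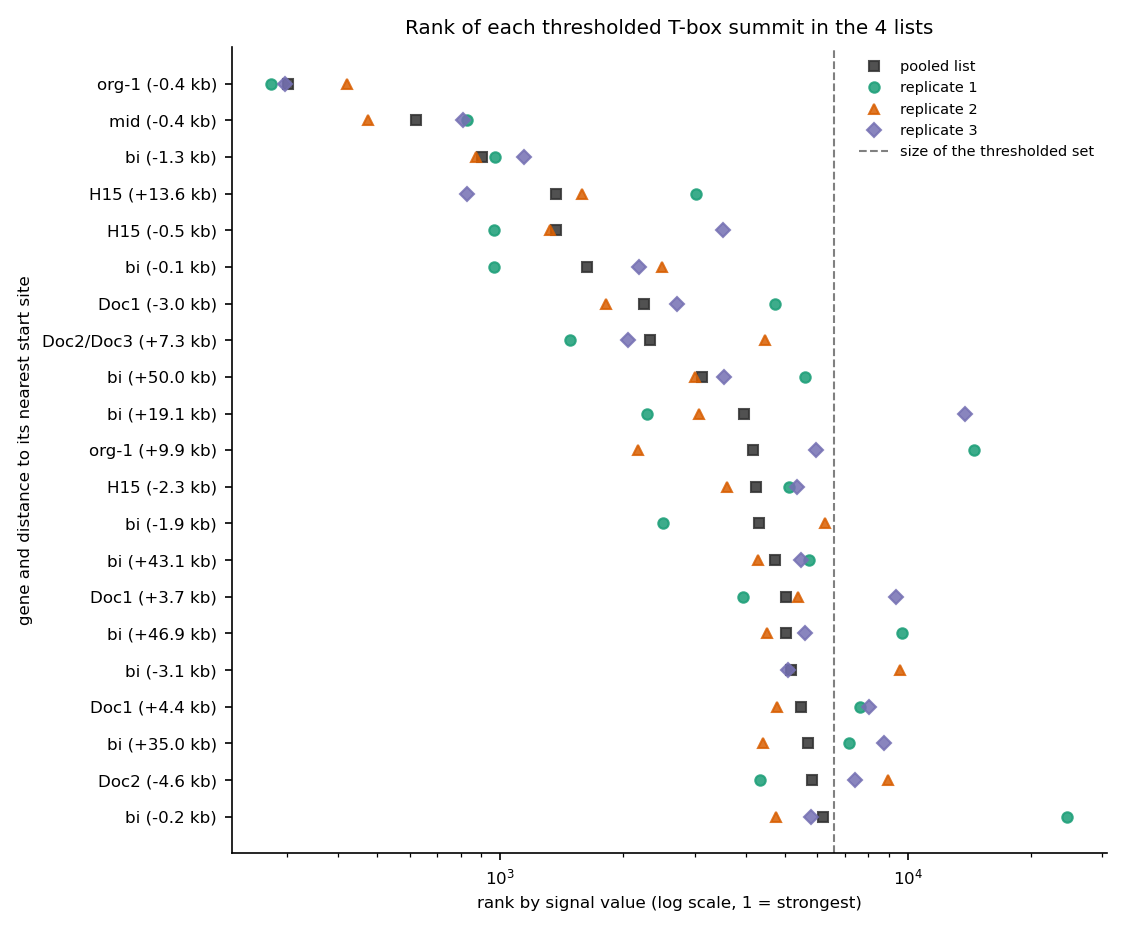
Rank by signal value of each of the 21 thresholded T-box summits (rows, with the distance to the TSS of the gene) in the pooled list and in replicates 1, 2 and 3, on a log axis; the dashed line marks the size of the thresholded set, 6578, and a point is left out where a library listed no summit within 100 bp. The top 3 rows, org-1, mid and bi, have ranks between 275 and 1148 in every library, while the lower rows spread across the line.

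In the libraries taken singly, a summit among the strongest 6578 peaks was found at 7 T-box genes in each replicate. Over all protein-coding genes the shares were 50.9%, 41.4% and 42.3% in replicates 1, 2 and 3. Ordered by the best rank in the window, org-1 came first in every library, from 275 to 421, and mid second, from 474 to 829. The ranges of these 2 genes did not overlap each other, and that of bi, from 875 to 1148, lay below both. H15 ranged from 831 to 1326 and overlapped with bi, Doc1 (1823 to 3945) overlapped with Doc2 and Doc3 (1481 to 4467), and byn (22279 to 24247) was last. At bi, H15 and Doc1 the best summit was not the same in every library. In the pooled list, 9.7% of protein-coding genes had a peak as strong as that of mid, 13.1% as that of bi, 18.1% as that of H15, 25.0% as that of Doc1, 25.5% as that of Doc2 and Doc3 and 62.6% as that of byn.

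**Figure D4:**
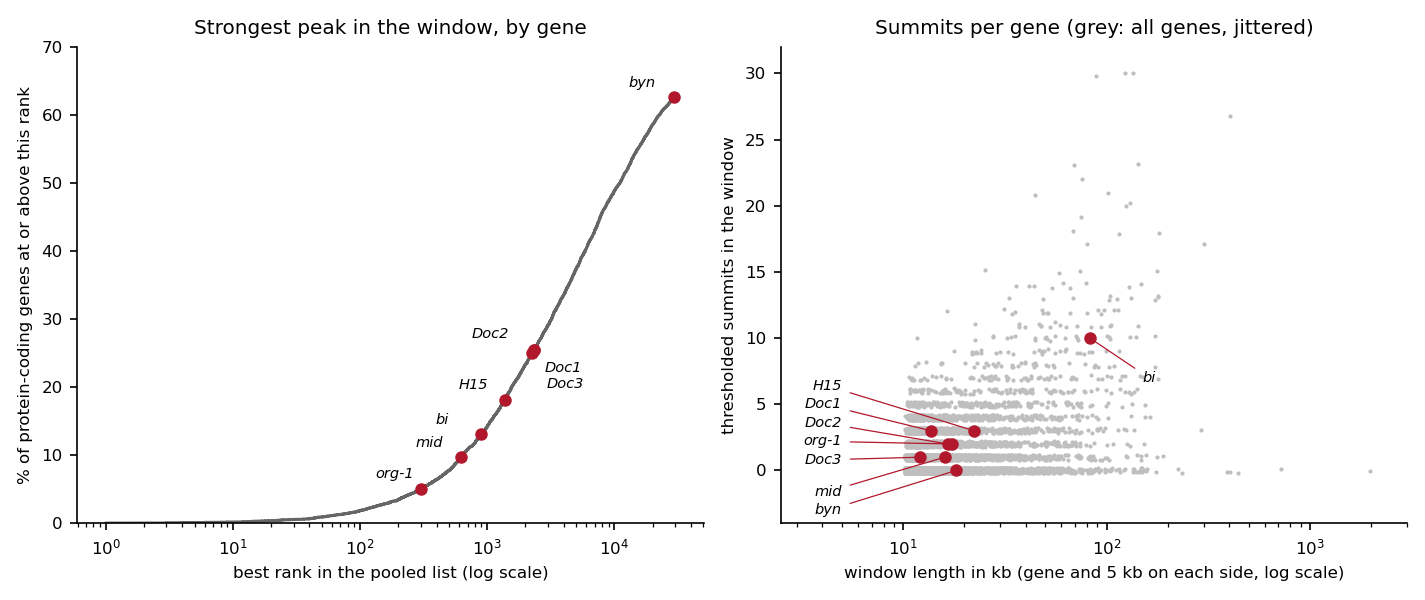
Left, the percentage of protein-coding genes whose best pooled-list peak in the gene or within 5 kb has a given rank or a stronger one (log x axis), with the T-box genes in red from org-1 (rank 302) to byn (rank 29500). Right, thresholded summits per gene against window length in kb (log axis; grey, all protein-coding genes, shifted slightly in height to separate them), where bi holds 10 and the other T-box genes 0 to 3.

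Across the 108 pooled peaks of the T-box windows, Spearman's rho of the ranks was 0.75 between replicates 1 and 2 (40 peaks found in both), 0.76 between 1 and 3 (40) and 0.76 between 2 and 3 (48). Over all pooled peaks the same values were 0.68, 0.68 and 0.75. These are descriptions: peaks in both lists only are counted, they come from the same libraries and share 1 control alignment. Within the thresholded list the T-box summits were spread over the whole range of strength. There were 6 in the strongest quartile, then 3, 5 and 7, and their median signal value of 227 was below the 262 of all thresholded peaks.

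T-box summits lay mostly away from promoters. Of the 21, 4 were within 500 bp of a protein-coding TSS, 7 were intronic and 10 intergenic. In the whole list 37.9% were within 500 bp of such a TSS, 41.9% intronic and 18.2% intergenic. These classes use protein-coding genes only, so the strongest summits of bi and Doc1, inside lncRNA genes, count as intergenic. The H15 summit 527 bp before its TSS fell just beyond the limit. None of the T-box summits lay in a coding exon or a UTR. Only bi, 1 of 8 T-box genes, had a thresholded summit in its body, against 14.1% of all protein-coding genes, so the family's share was above that of all genes with 5 kb around the gene and not with the body alone. Of the family's summits 38.1% were in the gene body, while 69.1% of all thresholded summits lay in the body of some protein-coding gene. For 17 of the 21 the nearest protein-coding TSS was that of a T-box gene, and the other 4 were nearest to CG5194, Argk2 or CG12123. On chromosome X, bi and org-1 held 12 of the 1384 thresholded summits.

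The words searched in the 201 bp around each summit were GAGAG, bound by the GAGA factor, AAAAAA, a homopolymer, AGGTGT, the core of the site that T-box proteins bind, CAGGTA, part of the Zelda site, TATCGATA, the DREF site, and GGTCACAC, part of the M1BP site. Both strands were read, overlapping matches of a word were each counted, and no word lies within another. GAGAG was in 10 of the 21 windows (47.6%, 28.3 to 67.6). The share was 31.2% of all thresholded windows and 22.7% of 13925 RefSeq promoter windows of the same length. Most of these T-box windows lay at bi, and the rest were at mid, H15, Doc1 and org-1. The interval treats summits of the same locus as separate. The internal promoter summit of bi printed above held 15 matches, a number reached by 0.167% of all thresholded windows, and the bi summit at 4424065 held 10, reached by 0.912%. AAAAAA was in 13 windows (61.9%, 40.9 to 79.2), against 71.7% of all thresholded windows and 36.2% of promoters. CAGGTA was in 1 window (4.76%), against 4.13% and 4.21%. TATCGATA and GGTCACAC were in none, against 1.92% and 1.96% of thresholded windows and 8.23% and 7.04% of promoters. The GC content had a median of 42.3%, with a range from 23.9% at the weak summit of org-1 to 64.7% at the internal promoter of bi, and the median of all thresholded windows was 39.8%.

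The T-box word AGGTGT was in 4 of the 21 windows (19.0%, 7.67 to 40.0), against 5.26% of all thresholded windows and 5.63% of promoters. All 4 were weaker summits, with pooled ranks from 3959 to 5835, and none was met in all 3 libraries. The word centres lay 27.5 to 81.5 bp from the summit, so only the nearest, at Doc1, was within 50 bp. The matches are printed below with 10 bases on each side, in the direction of the word. They are at Doc2 (chr3L:9023736-9023761, plus strand), Doc1 (chr3L:9046272-9046297, plus strand) and bi (chrX:4425098-4425123, plus strand, and chrX:4446112-4446137, minus strand). A match describes the letters only.
Doc2: agatggagcaAGGTGTtcctacgctc
Doc1: ttttaatgttAGGTGTttttttgctg
bi, first: gagtgtgtgaAGGTGTgtgtgtttgt
bi, second: tagcctgataAGGTGTatgagccccc

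Genes that work with the T-box factors were described in the same way, as 5 lists with 48 genes in all. Of these, 34 had a thresholded summit in the gene or within 5 kb. The share was 41.9% over all protein-coding genes, and 50.4% over those with windows as long as the T-box windows. The lists were not matched for window length, so nothing is read from their counts. All 10 BMP patterning genes around bi had one, with the strongest at tkv, a BMP receptor gene (signal value 1390, ranks 602, 34 and 38), brk, a repressor of BMP targets (1180, ranks 600, 64 and 79), and Mad, which encodes the Smad transducer (709). Of the 9 segment patterning genes around mid and H15, 7 had a summit, led by slp2, a forkhead factor gene (723), nkd, an inhibitor of Wingless signalling (515), and ptc, the Hedgehog receptor gene (448), while en and gsb had none. For the Doc genes, 8 of 12 amnioserosa and heart genes had a summit, led by ush, a partner of GATA factors (2390), peb (796) and pnr (784), a GATA factor gene of the dorsal ectoderm and heart. The ush window also takes in cbt, whose TSS is near the strongest ush summit, so such values belong to the window and not to 1 gene alone. Around byn, 8 of 12 hindgut genes had a summit, led by cad, a posterior homeobox gene (724), bowl (599) and otp (553), and hkb, tll, retn and lin had none. Of the 9 muscle founder genes around org-1, 5 had a summit (55.6%), not far from the shares over all genes. They were led by Mef2, the muscle differentiation factor gene (1610), tup (394) and lbe (386), whereas slou, lbl, twi and ap had none.

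**Figure D5:**
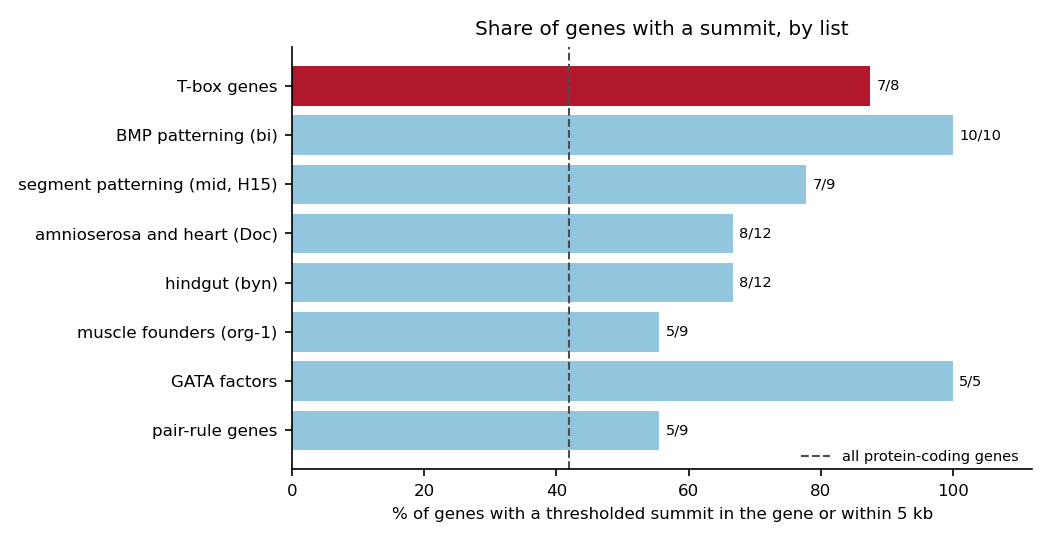
Percentage of genes with a thresholded summit in the gene or within 5 kb, for the T-box genes (red), the 5 lists of genes that act with them and 2 other families (light blue), with counts beside the bars; the dashed line marks all protein-coding genes, 41.9%. The T-box genes stand at 7 of 8, BMP patterning genes at 10 of 10 and muscle founder genes at 5 of 9.

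In a pair of other families of developmental factors, all 5 GATA factor genes and 5 of 9 pair-rule genes had a thresholded summit. The count was 7 of 8 for T-box genes, and the share over all protein-coding genes was 41.9%. It was 50.4% for genes with windows as long as those of the T-box genes, so the pair-rule share of 55.6% was not far from these. GATA genes had a median of 4 summits per gene, T-box genes 2 and pair-rule genes 1. The strongest were at pnr (784), grn (442) and GATAd (400) among GATA genes, and at slp2 (723), run (428) and slp1 (351) among pair-rule genes. Some genes share summits, as srp and GATAe do, so counts over genes are not counts of separate peaks. No test was made between these families.

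The genes whose ranks were most like those of org-1 were found by the Euclidean distance in log10 of the best rank, over the pooled list and the 3 libraries, among 7863 protein-coding genes outside the T-box windows that had a peak in all 4 lists. At the smallest distance, 0.0743, 4 genes tied: mRpL19, CG8032, CG8036 and p. They share 1 peak on chromosome 3R, with ranks of 324 in the pooled list and 273, 489 and 310 in replicates 1, 2 and 3, against 302, 275, 421 and 297 for org-1. The next, CG9030 and pdgy on chromosome X, tied at 0.0845.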

How the data were processed

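Peaks on dm6 came as lists for each of the 3 libraries and for the pooled libraries, each called against 1 shared control alignment, per the file headers. The thresholded list was derived from these by the irreproducible discovery rate, per the file headers, and it was the strongest 6578 peaks of the pooled list. Names and settings of the aligner, the peak caller and the threshold were not given in the sources used here. Each peak's signal value is the authors' deposited strength, of unstated scale, and peaks were ranked by it within each list. The authors' −log10 q values stood at its ceiling for 61.4% of thresholded peaks and were not used for ranking. Summit positions are the deposited offset from the start of each interval, written from 1. No read count is given, so intervals cover counting error only.

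Genes and start sites came from Ensembl release 115 (BDGP 6.54), and sequence and promoter windows (150 bp before to 50 bp after each gene start) from RefSeq on Release 6. Gene extents of all 8 T-box genes were the same in both. The pair-rule gene h was matched as hry through a synonym. Counts were made with Python 3.11.15, pandas 2.3.3 and scipy 1.17.1 and tested on simulated data. A library met a summit when 1 of its strongest 6578 peaks had a summit within 100 bp.

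No test between groups was made, since the data form 1 group and the peaks defined the set. The T-box genes, the related lists and the words were chosen with earlier results of these data known. Named genes were the T-box genes, sqz, up to 3 genes per list with the strongest summit, the nearest other gene to each T-box gene's summits, and the genes most like org-1 in rank, where ties gave more than 3. Listed genes without a summit, and genes beside single summits, were named with their values in view. The alternatives changed the window, the peak set, overlap, matching distance, single replicates, gene models and word window.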

Additional observations from a re-analysis of the deposited data

How the results depend on the processing

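With gene bodies only, 1 T-box gene (bi) had thresholded summits, 12.5% of the family against 14.1% of all protein-coding genes. In a family of 8 genes these shares are alike, so nothing is read from their order. There were 8 thresholded summits in T-box gene bodies, of which 3 were met in all 3 libraries, and 17 of the 48 related genes had one. With gene bodies and 1 kb, 7 summits were met in all 3 libraries. Among the thresholded peaks above the median signal there were 9 T-box summits. With those peaks 87.5% of T-box genes had a summit, against 30.6% of all protein-coding genes. When any listed peak within 100 bp counted, 19 were met in all 3 libraries. Requiring both other libraries left 11 to 14 summits, the lowest without replicate 2, at 7 genes each time and at 4 within 1 kb of a TSS. This asks for support in both, while the pooled list still holds all 3 libraries. No share over all genes stands beside the counts under this requirement, so nothing is read from them. Joining the windows between H15 and mid and between Doc2 and Doc1, chosen after seeing the data, gave 29 summits. Spearman's rho for replicates 1 and 2, 1 and 3, and 2 and 3 was 0.53, 0.62 and 0.69 with thresholded peaks only. With peaks matched within 250 bp it was 0.53, 0.63 and 0.55. These T-box values were below those of the main setting. No values over all peaks stand beside them, so agreement at T-box genes is not compared with that of all peaks here. In windows of 50 bp on each side, AGGTGT was in 4.76%, CAGGTA in 0% and AAAAAA in 38.1% of the T-box windows. The shares of all thresholded windows were 2.55%, 1.99% and 51.5%. CAGGTA thus passed below the share of all windows, but this rests on 1 T-box window. With 1, 2 or 10 kb around the gene, 75.0%, 75.0% and 87.5% of T-box genes had a summit, against 25.9%, 30.8% and 55.6% of all genes. The causes of these changes were not tested, apart from the fewer peaks or bases that a narrower setting takes. No paired analysis was possible because the samples form 1 group. Depth is unknown and the control is shared by all lists. The library and pooled lists stop at 30000 entries each, and the pooled list is named as peaks and background.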
